A study of Mus musculus with 27 samples.

Results

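The genes of glycolysis, glucose transport, lactate handling and glycogen turnover were followed in mouse ventricle as a set of 32 members, taken by symbol from the 55487 Ensembl genes of the deposited count table. All 32 were found in it. They cover glucose transporters, hexokinases, the phosphofructokinases and the enzymes that set their activator, the lower glycolytic enzymes, lactate dehydrogenase, the lactate transporters and the enzymes that build and break down glycogen.

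Glycolysis splits glucose to pyruvate in the cytosol and yields ATP without oxygen, and glycogen is the store from which muscle draws glucose phosphate. The fetal heart relies largely on glucose and lactate, and after birth the heart turns mainly to fatty acid oxidation while it keeps a large capacity for insulin-driven glucose uptake. Many steps have several genes for the same reaction, with a form typical of striated muscle (Slc2a4, Hk2, Pfkm, Pgam2, Eno3, Pygm) beside a form of wider or other expression (Slc2a1, Hk1, Pfkp, Pgam1, Eno1, Pygb), and the heart form of lactate dehydrogenase, Ldhb, stands beside Ldha.

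Ventricles were profiled by RNA-seq in 27 libraries of 7 groups, in which either the amount of MBNL1, a splicing regulator that binds RNA, or the age of control hearts was varied. The P60 groups (postnatal day 60) held 5 libraries labelled KO, for loss of MBNL1 function, with 4 controls (Ctl) taken 7 days after knockout, and a further 4 labelled KO with 3 controls taken 14 days after it. The P7 groups (postnatal day 7) held 4 libraries labelled Tg, for gain of MBNL1 function, and 3 controls, and 4 controls were of P1 (day 1). Strain, method of knockout, deleted exons, targeted cells, transgene promoter, and alleles or agents carried by the controls are not given in the sources used here. All P60 controls carry a time after knockout, and the P7 and P1 controls carry none. In comparisons of P60 with P7 or P1 controls, age therefore cannot be told apart from whatever else came with the knockout experiment. No label ties libraries to separate animals, and the p-values therefore cover the spread of these libraries, part of which may be technical.

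Total counts ran from 21929347 to 25675115 per library. Mbnl1 itself was at 219, 102, 167, 115 and 168 CPM (counts scaled to a common library total) in the libraries labelled KO at 7 days, against 153, 146, 149 and 147 CPM in their controls, and at 137, 135, 115 and 121 CPM in those labelled KO at 14 days, against 170.1, 159 and 151 CPM in controls. Its gene count did not separate the groups at 7 days, and a count outside the deleted part checks no label. At P7 it was at 2935 to 4079.5 CPM in the libraries labelled Tg, against 96.9 to 105 CPM in controls. The summed level of 10 cardiomyocyte markers was 23277 to 47933 CPM in the libraries labelled KO at 7 days, against 71595 to 77144 CPM in controls. At 14 days the sum was 50687 to 59921 CPM, against 75192 to 80653 CPM in controls. Of the 10, 0 were called higher and 7 lower at 7 days, and 2 and 7 at 14 days. Scaled by total counts in place of TMM, 1 was higher and 6 lower at 7 days, and 3 and 6 at 14 days. Of 8 fibroblast markers the sum was 4494 to 11685 CPM at 7 days, against 1315 to 1601 CPM in controls, and 5178 to 6674 CPM at 14 days, against 1471 to 1578 CPM in controls; 6 and 8 of the 8 were called higher. Of 8 macrophage markers it was 1086 to 1556 CPM at 7 days, against 411 to 483 CPM in controls, and 671 to 988 CPM at 14 days, against 338 to 524 CPM in controls; none of these 26 markers was at 0 in any group. Endothelial markers summed to 600.1 to 852 CPM at 7 days, against 1041 to 1147 CPM in controls. Smooth muscle and pericyte markers then summed to 527 to 632 CPM, against 908 to 972 CPM. Of 8 endothelial markers 0 were called higher and 6 lower (0 and 3 with total counts). Of 6 smooth muscle and pericyte markers 1 was called higher and 3 lower (3 and 3 with total counts). Atrial markers summed to 283 to 2555 CPM at 7 days, against 91.1 to 237 CPM in controls, and to 3367 to 4226 CPM at 14 days, against 138 to 216 CPM. Of the 4 atrial markers 1 was called higher and 1 lower at 7 days (median log2 fold change -0.70), so that sum does not stand for the list. At 14 days 2 were called higher and 0 lower (median 0.62). At 7 days the sums of the erythroid, skeletal muscle and adipocyte lists were also lower in the libraries labelled KO without overlap. Called lower were 6 of 6 erythroid, 1 of 2 tested skeletal muscle and 1 of 4 adipocyte markers (3, 1 and 0 with total counts). The skeletal muscle and adipocyte sums therefore do not stand for their lists. Sums of the neutrophil and neuronal lists overlapped. Mitochondrially encoded genes took 14.7 to 18.3% of counts in the libraries labelled KO at 7 days, against 26.04 to 29.2% in controls, and 17.4 to 21.6% at 14 days, against 26.3 to 29.6% in controls. The part of these shifts in the results on the members was not tested, and in bulk tissue fewer cells of a type and less RNA per cell cannot be told apart.

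Levels above and below are CPM scaled by TMM, a normalization that assumes most genes do not change. Differences are log2 fold changes ± SE from edgeR's quasi-likelihood test, and a gene was called at a Benjamini-Hochberg adjusted p under 0.05 over all genes tested in the comparison.

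Over the first week, most members fell in control ventricle. The 3 called higher were Slc2a4, Pfkm and Eno3, while the other muscle forms Hk2, Pgam2 and Pygm were not called. In P7 against P1 controls 20 of 32 members were lower, where 11.2% of the 16388 genes tested were lower, and 3 were higher, where 12.3% of all genes were higher. The median log2 fold change was -0.53 over the members and -0.01 over all genes. Later most rose: in P60 against P7 controls 22 members were higher, where 33.3% of all genes were higher, and 3 were lower, where 36.0% were lower, with a median of 0.84 against -0.05 over all genes. In P60 against P1 controls 16 members were higher, where 35.1% of all genes were higher, and 11 were lower, where 38.6% were lower, with a median of 0.19 against -0.05.

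The members fell into 5 patterns over the 2 intervals. Slc2a4, Pfkm and Eno3 were higher in both, although with all 27 libraries in 1 fit the first rise lost its call for Slc2a4 (adjusted p = 0.33) and Pfkm (adjusted p = 0.14), and with total-count scaling the second did for Eno3 (0.10, adjusted p = 0.131). Lower at P7 and higher again at P60 were 10 members: Slc2a1, Gpi1, Aldoa, Tpi1, Gapdh, Ldhb, Slc16a1, Pygb, Gys1 and Gbe1. Pfkp, Aldoc and Eno1 fell in both intervals, and 7 members (Slc2a3, Hk1, Pgk1, Pgam1, Eno2, Ldha and Slc16a3) were called lower in the first and not called in the second. Called only as higher after P7 were 9 members: Hk2, Pfkl, Pfkfb1, Pfkfb2, Pfkfb3, Pgam2, Pkm, Pygm and Ugp2. In that 1 fit the calls on Tpi1, Ldhb, Slc16a1 and Pygb in the first interval ended too. Whether the change of a member differed between the intervals was not tested.

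With scaling by total counts in place of TMM, the median of all genes became -0.65 in P60 against P7 controls and -0.71 in P60 against P1 controls, and higher genes made up 18.0% and 19.3% of all calls in place of 48.1% and 47.6%; in P7 against P1 controls they made up 41.0% in place of 52.4%. Under that scaling the sign turned for Gpi1, Pfkl, Tpi1 and Pkm in P60 against P7 controls, and for Pfkfb3, Gapdh and Pkm in P60 against P1 controls, while Eno3, Gys1 and Pfkfb3 kept their sign and lost their calls in P60 against P7 controls. Mitochondrially encoded genes took 10.3 to 13.0% of counts in P1, 15.3 to 15.9% in P7 and 26.04 to 29.6% in P60 controls, and their part in the scaling was not tested. Marker sums moved with age as well: cardiomyocyte markers came to 39495 to 47313 CPM in P1, 49435 to 50522 CPM in P7 and 71595 to 80653 CPM in P60 controls, fibroblast markers to 2732 to 4348, 6066 to 7121 and 1315 to 1601 CPM, and macrophage markers to 60.7 to 94.0, 92.6 to 120.0 and 338 to 524 CPM. In P60 against P7 controls 9 of 10 cardiomyocyte and 8 of 8 macrophage markers were called higher, and 6 of 8 fibroblast and 5 of 8 endothelial markers lower. These counts too depend on the scaling. With total counts 3 cardiomyocyte markers were higher and 3 lower (median 0.01, against 0.62 with TMM). Then 7 macrophage markers were higher, and 7 fibroblast and 7 endothelial markers were lower. The part of the marker shifts in the members' changes was not tested.

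**Figure D1:**
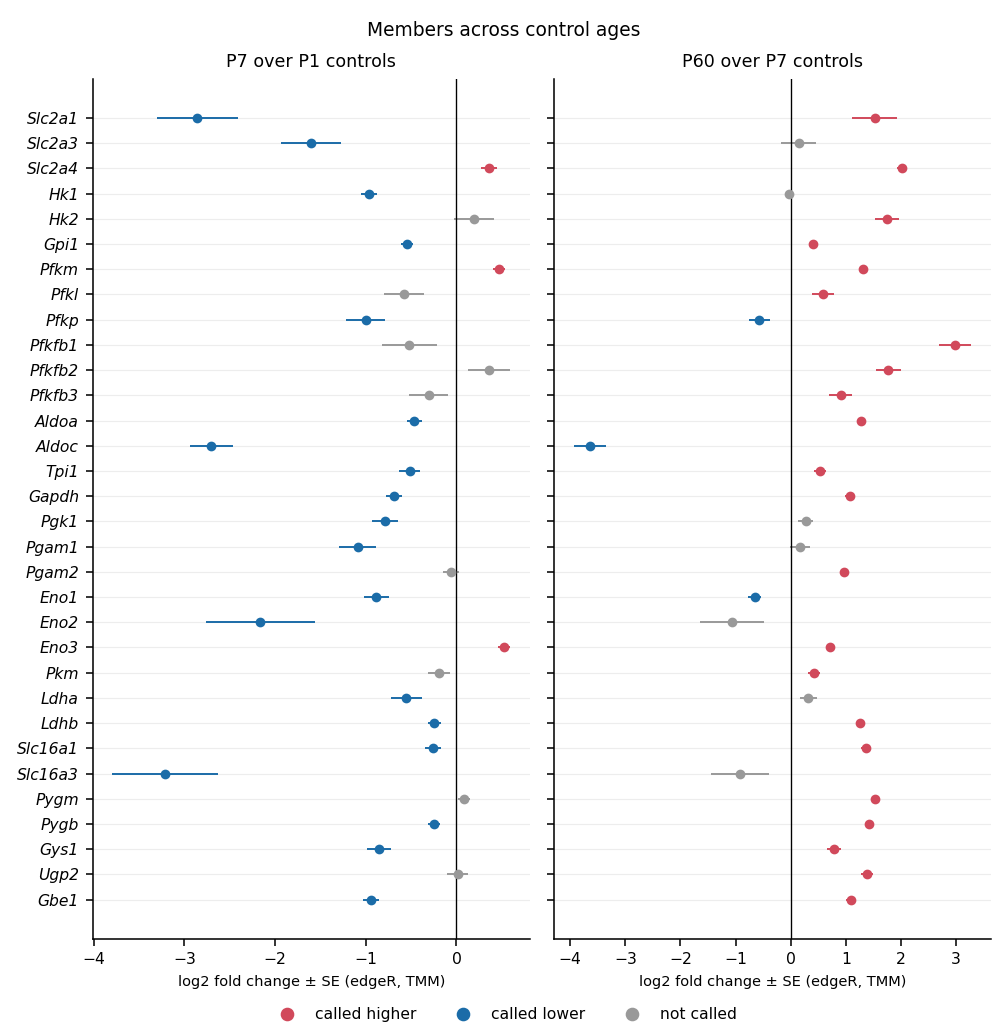
Log2 fold changes ± SE of the 32 members in control ventricles, P7 over P1 on the left and P60 over P7 on the right, with red for members called higher, blue for lower and grey for members not called (edgeR, TMM scaling). On the left the 3 red members are Slc2a4, Pfkm and Eno3, and on the right 22 of 32 are red, of which Gpi1, Pfkl, Tpi1 and Pkm turn sign and Eno3, Gys1 and Pfkfb3 lose their calls with total-count scaling.

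Among the glucose transporters, Slc2a4 (GLUT4), which insulin brings to the surface of muscle cells, rose in both intervals. Slc2a4 was at 161, 154, 115 and 131 CPM in P1 controls, at 194, 172 and 173 CPM in P7 controls and at 695 to 755 CPM in the 7 P60 controls (median 733). Its log2 fold change was 0.36 ± 0.09 in P7 against P1 controls (adjusted p = 0.0115), a call that ended without P7 control library 1, and 2.02 ± 0.09 in P60 against P7 controls (adjusted p = 2.05e-10). Slc2a1 (GLUT1), the transporter of basal uptake in most cells, was at 109, 124, 32.8 and 30.2 CPM in P1 controls, at 10.3, 10.5 and 9.55 CPM in P7 controls and at 19.7 to 38.9 CPM in P60 controls (median 30.0). P7 lay under both other ages without overlap, while P60 overlapped P1. Slc2a3 (GLUT3), a high-affinity transporter best known from neurons, had 11.4, 11.3, 4.47 and 4.06 CPM in P1 and 2.09 to 3.35 CPM in P60 controls, and fell by 1.60 ± 0.33 in P7 against P1 controls (adjusted p = 0.003).

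Hexokinase traps glucose as glucose 6-phosphate. Hk1, the form of most tissues, was at 568, 572, 504 and 441 CPM in P1 controls, at 259, 259.7 and 281 CPM in P7 controls and at 232 to 299 CPM in P60 controls (median 265). Hk2, the form of insulin-sensitive muscle, was at 106, 139, 64.4 and 58.9 CPM in P1 controls, at 111, 99.0 and 104 CPM in P7 controls and at 306 to 407 CPM in P60 controls (median 354). Hk1 was lower from P7 on, and Hk2 was higher at P60. The log2 ratio of Hk2 to Hk1 counts, which does not depend on the scaling between libraries, was -2.58 ± 0.44 (SD, n = 4) in P1, -1.35 ± 0.11 (SD, n = 3) in P7 and 0.43 ± 0.17 (SD, n = 7) in P60 controls. P60 and P7 ratios did not overlap (two-sided exact permutation p = 0.0167, adjusted p = 0.0407 over 66 tests of 11 isoform pairs in 6 comparisons). Per kilobase of principal transcript, Hk1 made up 51.4% of the RNA of the pair in P60 controls, but 34.2% with the length of all annotated exons, a choice of length made after seeing the data, so which was more abundant at P60 depends on the length used.

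Phosphofructokinase commits glucose to glycolysis. The muscle subunit Pfkm was at 339.7 to 390.2 CPM in P1, 500.5 to 515 CPM in P7 and 1157 to 1331 CPM in P60 controls, and per kilobase it made up 57.9%, 75.6% and 86.6% of the 3 subunit genes on average. The platelet subunit Pfkp was at 125 to 256 CPM in P1, 88.9 to 94.3 CPM in P7 and 51.8 to 80.1 CPM in P60 controls. No age overlapped the next for either gene, and Pfkp fell by 1.001 ± 0.21 and then by 0.57 ± 0.19 (adjusted p = 0.00377 and 0.0141). The liver subunit Pfkl rose by 0.58 ± 0.20 after P7 (adjusted p = 0.0187), a call that ended without P7 control library 2 or 3.

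The bifunctional enzymes Pfkfb1, Pfkfb2 and Pfkfb3 make and remove fructose 2,6-bisphosphate, the main activator of phosphofructokinase. Pfkfb1, known from liver and muscle, was at 3.51, 2.64, 4.41 and 3.17 CPM in P1, 2.59, 2.03 and 2.56 CPM in P7 and 11.4 to 25.1 CPM in P60 controls, and rose by 2.98 ± 0.29 after P7 (adjusted p = 4.25e-07). Pfkfb2, the heart form, rose by 1.77 ± 0.22 after P7 (adjusted p = 5.7e-06), and Pfkfb3, the inducible form, by 0.90 ± 0.20 (adjusted p = 0.00111). All 3 were highest at P60, although Pfkfb3 in P60 controls (13.6 to 21.2 CPM) overlapped P1 (6.198 to 16.1 CPM).

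Of the middle enzymes, the aldolase Aldoa was at 2135 to 2673 CPM in P1, 1655 to 1838 CPM in P7 and 3718 to 4682 CPM in P60 controls. Gapdh, the dehydrogenase often used as a loading standard, was at 3036 to 4066, 2047 to 2369.5 and 4429 to 5180.3 CPM at these ages. Both were lowest at P7 without overlap, and Gapdh rose by 1.07 ± 0.09 after it (adjusted p = 4.98e-08); its difference of 0.38 ± 0.07 in P60 against P1 controls was -0.28 with total-count scaling. The triose phosphate isomerase Tpi1 and the phosphohexose isomerase Gpi1 fell by 0.52 ± 0.12 and 0.55 ± 0.06 over the first week. Pgk1, the kinase that makes the first ATP of the lower pathway, fell by 0.79 ± 0.15 and was not called after P7. Aldoc, the brain aldolase, was at 22.4, 22.5, 14.5 and 23.8 CPM in P1, 3.505, 3.71 and 2.35 CPM in P7 and 0 to 0.439 CPM in P60 controls, where 0 to 7 reads were counted per library.

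Phosphoglycerate mutase and enolase also have muscle forms. The muscle mutase Pgam2 was at 326 to 393 CPM in P1, 328 to 375 CPM in P7 and 606 to 752 CPM in P60 controls, while Pgam1, the wider form, was at 37.0 to 74.4, 23.0 to 28.4 and 23.4 to 31.5 CPM. The muscle enolase Eno3 was at 560.2 to 643 CPM in P1, 828 to 892 CPM in P7 and 1331 to 1529 CPM in P60 controls. The ubiquitous enolase Eno1 was at 411 to 705 CPM in P1, 294 to 320.2 CPM in P7 and 180.2 to 216 CPM in P60 controls. Eno3 rose and Eno1 fell without overlap between successive ages, and per kilobase Eno3 made up 57.8%, 78.4% and 90.3% of the 3 enolase genes on average. Eno2, the neuronal enolase, was at 2.72, 36.4, 7.44 and 9.91 CPM in the P1 libraries, with library 2 far above the others, and its fall of 2.16 ± 0.60 over the first week was 1.10 without that library. The call on Eno2 ended without any 1 of the P7 controls. The pyruvate kinase Pkm was at 837 to 1404, 971 to 1030.3 and 1285 to 1378 CPM at the 3 ages, and its call in P60 against P1 controls ended on leaving out any 1 of the P60 or P7 controls or P1 library 3 or 4.

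At the end of the pathway, Ldhb, whose subunit favours the use of lactate, was at 786 to 892 CPM in P1, 696 to 724 CPM in P7 and 1546 to 1838 CPM in P60 controls. Ldha, whose subunit favours lactate production, was at 558 to 1190.0, 581 to 634 and 669 to 853 CPM. The Ldhb to Ldha log2 ratio was 1.17 ± 0.11 (SD, n = 7) in P60 and 0.22 ± 0.04 (SD, n = 3) in P7 controls, without overlap (exact permutation p = 0.0167, adjusted p = 0.0407), and P7 overlapped P1 (exact permutation p = 0.4). Slc16a1 (MCT1), a transporter of lactate in both directions, was at 136 to 188, 129 to 137 and 311 to 369 CPM at the 3 ages. Slc16a3 (MCT4), the lactate exporter of glycolytic cells, was at 112, 131, 14.7 and 25.5 CPM in P1, 7.36, 7.496 and 7.79 CPM in P7 and 3.28 to 5.33 CPM in P60 controls. It was lower at each age without overlap, and fell by 4.14 ± 0.46 in P60 against P1 controls (adjusted p = 1.08e-06). The falls of Ldha, Ldhb and Slc16a1 over the first week (0.55 ± 0.17, 0.24 ± 0.07 and 0.26 ± 0.09) lost their calls without any 1 of the P7 controls. Each also lost its call with a replicate block, and Ldha and Slc16a1 did without P1 library 1 or 2. The call on Slc16a1 ended as well without any 1 of P60 control libraries 2 to 7. It also ended with a sex covariate, without a low-count filter and without mitochondrially encoded genes.

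Both glycogen phosphorylases and Ugp2 were highest at P60. Pygm, the muscle glycogen phosphorylase, was at 671 to 743 CPM in P1, 736 to 759.7 CPM in P7 and 2028 to 2331 CPM in P60 controls. Pygb, the brain form that the heart also makes, was at 560.0 to 607, 476 to 504 and 1178 to 1425 CPM. Both rose after P7, by 1.54 ± 0.06 and 1.42 ± 0.06, while the earlier fall of Pygb (0.25 ± 0.06) lost its call without P7 control library 3. Ugp2, which makes the UDP-glucose used for glycogen, was at 259 to 365 CPM in P60 controls, against 119 to 130.2 CPM in P7 controls (1.38 ± 0.11, adjusted p = 4.73e-08). The glycogen synthase Gys1 and the branching enzyme Gbe1 fell by 0.86 ± 0.13 and 0.94 ± 0.08 over the first week and rose by 0.79 ± 0.12 and 1.09 ± 0.08 after it, and neither was called in P60 against P1 controls.

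**Figure D2:**
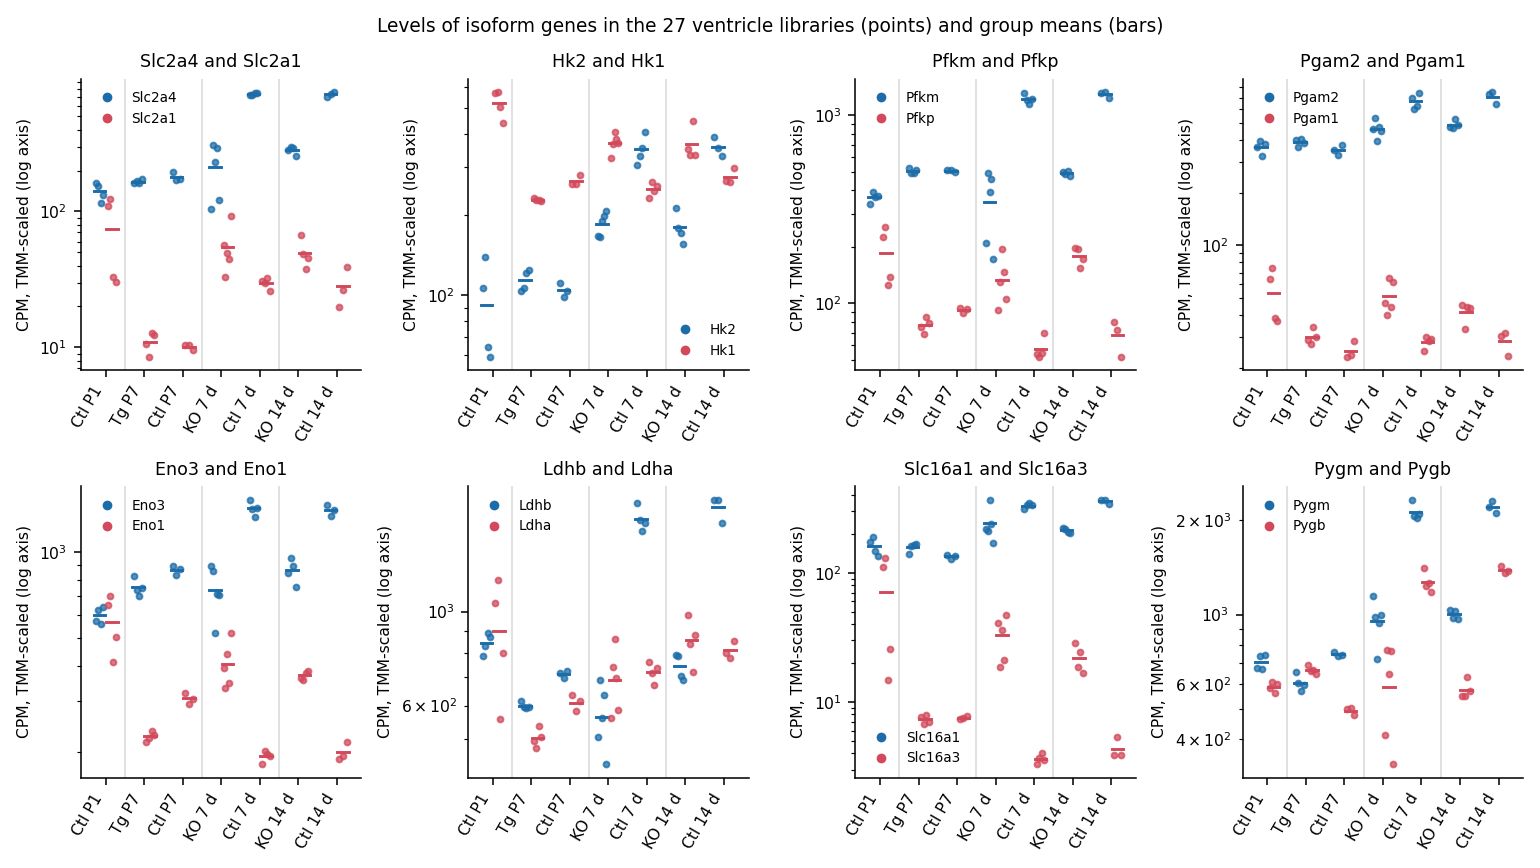
CPM (TMM-scaled, log axis) of 8 pairs of genes for the same step in each of the 27 libraries, with a point per library and a bar at each group mean; groups run by age, and libraries labelled Tg or KO stand left of their controls. In P60 controls the CPM of the blue gene, which is not per length, lies above that of its red partner in every panel, and in both groups labelled KO Hk2 and Ldhb have group means below those of Hk1 and Ldha.

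The 4 control libraries of P1 were not alike. Libraries 1 and 2 had more RNA of the glucose and lactate transporters and of most glycolytic enzymes than libraries 3 and 4. Slc16a3 was at 112 and 131 CPM in libraries 1 and 2, and at 14.7 and 25.5 CPM in libraries 3 and 4. Slc2a1 was at 109 and 124 CPM in libraries 1 and 2, and at 32.8 and 30.2 CPM in libraries 3 and 4. Ldha was at 1049 and 1190.0 CPM in libraries 1 and 2, and at 558 and 798 CPM in libraries 3 and 4. Without overlap, 21 of the 32 members were higher in libraries 1 and 2, where 31.9% of the 14012 genes compared were higher. Of the members, 1 was lower, Ldhb (786 and 828 CPM in libraries 1 and 2, and 892 and 869.7 CPM in libraries 3 and 4), where 24.4% of the genes compared were lower. The labels give nothing that sets these libraries apart, so this describes 4 libraries, with no test.

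Genes near the pathway differed between the same libraries, and those named here were picked after their values were seen. Pdk4, a kinase that shuts off pyruvate dehydrogenase, was at 35.6 and 38.5 CPM in libraries 1 and 2, and at 272 and 214 CPM in libraries 3 and 4. Txnip, an inhibitor of glucose uptake, was at 317 and 189 CPM in libraries 1 and 2, and at 991 and 779 CPM in libraries 3 and 4. Egln3, an oxygen-sensing hydroxylase that hypoxia induces, was at 81.5 and 121 CPM in libraries 1 and 2, and at 43.9 and 37.7 CPM in libraries 3 and 4. Pdk4 and Txnip were low and Egln3 high where the transporters were high. Cardiomyocyte markers summed to 39495 and 43536 CPM in libraries 1 and 2, and to 45044 and 47313 CPM in libraries 3 and 4, macrophage markers to 60.7 and 65.4 CPM, and to 94.0 and 91.5 CPM, and fibroblast markers to 4253 and 4348 CPM, and to 2732 and 4165 CPM. Mitochondrially encoded genes took 11.99 and 10.3% of counts in libraries 1 and 2, and 13.0 and 13.0% in libraries 3 and 4, and the part of these values in the split was not tested.

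**Figure D3:**
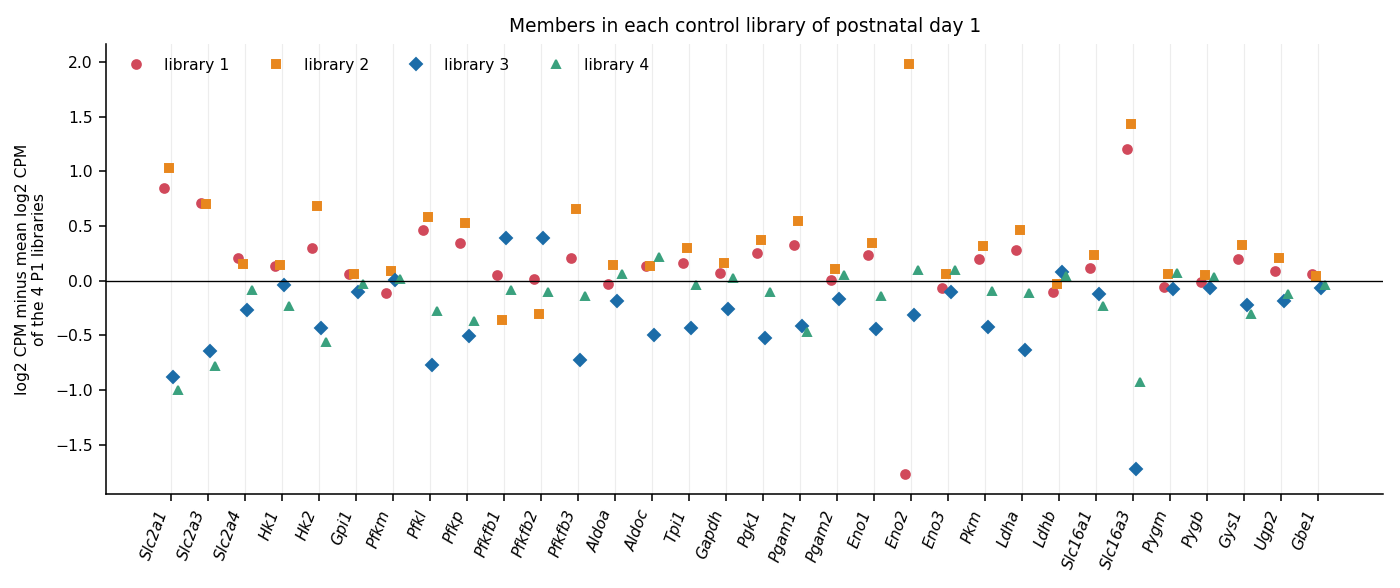
Level of each member in the 4 P1 control libraries, as log2 CPM minus the mean log2 CPM of the 4, with a marker per library. Libraries 1 and 2 (red circles, orange squares) lie above libraries 3 and 4 (blue diamonds, green triangles) for 21 of 32 members, among them Slc16a3, Slc2a1 and Slc2a3, and Eno2 is spread by libraries 1 and 2 themselves.

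Leaving out P1 libraries 3 and 4 changed several falls over the first week. Slc16a3 then had a log2 fold change of -4.001 in place of -3.21, Slc2a1 of -3.52 in place of -2.86 and Ldha of -0.87 in place of -0.55. Pfkl, Pfkfb3 and Pkm became called as lower (-1.01, -0.67 and -0.43), and the calls on Slc2a4 (0.19) and Ldhb (-0.18) ended. With these libraries out, 22 members were lower and 2 higher in P7 against P1 controls, and calls over all genes numbered 5723 in place of 3844, of which 2771 in place of 2016 were higher. In P60 against P1 controls Pkm turned sign, to -0.01, the rise of Pfkfb3 (0.22) lost its call, and 14 members were higher and 15 lower.

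The letters ACGTG are a form of the core bound by hypoxia-inducible factors, and other forms of that core were not searched. The letters CACGTG are an E-box bound by MYC and by the carbohydrate-responsive factor Mlxipl. Sequences upstream of 4 of the members are shown because they hold, or lack, these letters. Each is the 250 bases before a RefSeq start on GRCm38.p6, 5′ to 3′ on the strand of the gene, and capitals mark each ACGTG on either strand (CACGT when it lies on the other strand, CACGTG when on both).
Slc16a3, chr11:120948817-120949066, plus strand: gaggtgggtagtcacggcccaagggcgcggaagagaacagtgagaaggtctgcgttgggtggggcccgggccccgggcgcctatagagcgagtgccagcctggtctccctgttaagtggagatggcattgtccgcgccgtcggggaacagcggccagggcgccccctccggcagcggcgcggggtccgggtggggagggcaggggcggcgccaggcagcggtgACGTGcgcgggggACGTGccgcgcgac
Slc2a1, chr4:119108495-119108744, plus strand: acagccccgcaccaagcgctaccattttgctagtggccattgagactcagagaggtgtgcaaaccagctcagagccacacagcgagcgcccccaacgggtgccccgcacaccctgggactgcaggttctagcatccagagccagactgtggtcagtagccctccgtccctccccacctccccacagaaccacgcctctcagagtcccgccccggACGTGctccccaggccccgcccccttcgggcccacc
Ldha, chr7:46845554-46845803, plus strand: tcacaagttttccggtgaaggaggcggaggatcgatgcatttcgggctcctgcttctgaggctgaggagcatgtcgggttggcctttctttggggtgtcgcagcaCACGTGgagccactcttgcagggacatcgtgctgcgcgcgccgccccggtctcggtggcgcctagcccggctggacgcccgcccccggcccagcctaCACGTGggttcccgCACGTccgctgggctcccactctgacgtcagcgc
Ldhb, chr6:142507958-142508207, minus strand: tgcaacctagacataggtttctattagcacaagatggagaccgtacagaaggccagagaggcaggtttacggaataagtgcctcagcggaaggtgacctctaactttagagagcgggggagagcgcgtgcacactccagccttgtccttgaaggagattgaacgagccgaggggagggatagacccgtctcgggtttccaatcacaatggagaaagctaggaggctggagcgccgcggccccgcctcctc

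The Slc16a3 stretch holds 2 matches to ACGTG and the Slc2a1 stretch holds 1. The Ldha stretch, before the first of its 2 RefSeq starts, holds 5 over both strands, since each of its 2 CACGTG counts on both. In the Ldhb stretch neither ACGTG nor CACGTG was found, and other forms of the core were not searched. RefSeq gave at least 1 stretch for 30 of the 32 members, and 15 of the 30 had ACGTG (50%), against 18.5% of 27025 genes, while 5 had CACGTG (16.7%), against 6.86%. Members had more stretches per gene (48 for 30 members, against 32851 for all genes), and per stretch 19 of the 48 had ACGTG, against 16.6% of all, and 5 had CACGTG, against 6.02%. A match is a run of letters, not a measured binding site, and of the 21 members that were higher in P1 libraries 1 and 2, 10 had ACGTG in a stretch, 9 had none (Hk1, Gpi1, Pfkl, Pfkp, Tpi1, Gapdh, Eno1, Gys1 and Gbe1) and 2 had no stretch (Slc2a3 and Slc2a4). Members outside those 21, such as Pfkfb2 and Pygb, also had ACGTG in a stretch. Any link of these letters to the split of the P1 libraries was not tested.

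In the libraries labelled KO at 7 days, the muscle forms Slc2a4, Hk2, Pfkm, Pgam2 and Eno3 were lower than in controls and their partners of wider expression Slc2a1, Hk1, Pfkp, Pgam1 and Eno1 were higher. Ldhb fell while Ldha was not called, Slc16a3 rose while Slc16a1 was not called, and Pygm and Pygb both fell. Of 32 members 9 were higher, where 26.4% of the 15167 genes tested were higher, and 15 were lower, where 24.4% were lower. The median log2 fold change was -0.38 over the members and 0.03 over all genes. At 14 days 9 of the 31 members tested were higher, where 21.8% of 14976 genes were higher, and 17 were lower, where 22.4% were lower, with a median of -0.32 against 0.01 over all genes. At both times 7 members were called higher and 14 lower, and 0 were called in opposite directions. How many of all genes were called alike at both times was not counted, so this describes the members alone.

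The response at 14 days was not called different from that at 7 days for any member: edgeR's test of the difference itself called 0 of 32, where 0% of 15951 genes were called. An unadjusted p under 0.05 was found for 1 member and 1662 genes, and DESeq2 and limma-voom also called 0 members. Over all genes limma-voom called 0 and DESeq2 called 147.

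With total-count scaling the median of all genes became 0.45 at 7 days and 0.39 at 14 days, and higher genes made up 83.5% and 81.9% of calls in place of 52.0% and 49.4%. Of the called members Gys1 and Gbe1 turned sign at 7 days and Pfkl, Tpi1 and Pkm at 14 days. Aldoa, Pgam2 and Tpi1 lost their calls at 7 days, and Aldoa, Pgam2 and Gys1 at 14 days. Under that scaling 15 members were higher and 10 lower at 7 days, where 9652 of the 15167 genes tested were called, 8062 of them higher. At 14 days 13 members were higher and 11 lower, where 8900 of the 14976 genes tested were called, 7288 of them higher. With all 27 libraries in 1 fit the call on Eno2 ended at 7 days, and those on Eno2, Pfkl, Pkm, Slc2a1 and Tpi1 at 14 days.

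Slc2a4 was at 104, 310.4, 230.2, 292 and 121 CPM in the libraries labelled KO at 7 days, against 718, 720.3, 744 and 749 CPM in controls. Slc2a1 was at 56.4, 33.1, 49.6, 44.4 and 92.2 CPM in the libraries labelled KO, against 31.0, 30.0, 32.3 and 26.1 CPM in controls. Every library labelled KO lay far under the controls for Slc2a4 and above them for Slc2a1, though by little in library 2. The changes were -1.80 ± 0.30 for Slc2a4 and 0.88 ± 0.25 for Slc2a1 (adjusted p = 0.000682 and 0.0131). At 14 days Slc2a4 was at 282, 296, 294 and 256 CPM in the libraries labelled KO, against 695, 733 and 755 CPM in controls. Slc2a1 was then at 66.8, 48.9, 37.8 and 45.3 CPM, against 19.7, 26.5 and 38.9 CPM in controls. The Slc2a1 groups overlapped, and the call of 0.80 ± 0.24 (adjusted p = 0.0201) ended without KO library 6 or control library 5 or 6. Slc2a3 rose by 1.02 ± 0.17 at 7 days and was not called at 14 days (0.46 ± 0.23, adjusted p = 0.128).

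Hk2 was at 167, 166, 189, 197 and 206 CPM in the libraries labelled KO at 7 days, against 306, 331, 355 and 407 CPM in controls. Hk1 was at 325, 365, 407, 381 and 369 CPM in the libraries labelled KO, against 232, 265, 246 and 255 CPM in controls. Neither gene overlapped between the groups, and the changes were -0.93 ± 0.11 and 0.56 ± 0.09 (adjusted p = 9.28e-05 and 0.000668). The Hk2 to Hk1 log2 ratio was -0.999 ± 0.12 (SD, n = 5) in the libraries labelled KO, against 0.48 ± 0.16 (SD, n = 4) in controls (exact permutation test, two-sided, p = 0.0159, adjusted p = 0.0407; 5 against 4 libraries allow no smaller p). At 14 days it was -1.03 ± 0.28 (SD, n = 4) in the libraries labelled KO, against 0.37 ± 0.21 (SD, n = 3) in controls, without overlap, but 4 against 3 libraries cannot go below an exact permutation p of 0.0571. Hk1 at 14 days lost its call (0.40 ± 0.12) without control library 5 or 6.

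Pfkm was at 209, 494, 389, 456 and 173 CPM in the libraries labelled KO at 7 days, against 1320.2, 1202, 1157 and 1223 CPM in controls. Pfkp was at 92.0, 130.0, 194, 148 and 105 CPM in the libraries labelled KO, against 53.8, 52.0, 54.4 and 69.7 CPM in controls. Neither overlapped, with changes of -1.84 ± 0.29 and 1.21 ± 0.21 (adjusted p = 0.000448 and 0.000764). At 14 days Pfkm was at 476 to 506 CPM in the libraries labelled KO, against 1240.0 to 1331 CPM in controls, and Pfkp at 154 to 197 CPM, against 51.8 to 80.1 CPM. Summed per kilobase of principal transcript, the 3 phosphofructokinase genes came in CPM per kb to 190.2 ± 70.9 (SD, n = 5) in the libraries labelled KO at 7 days, against 494 ± 23.8 (SD, n = 4) in controls.

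Pfkfb1 was the member with the largest fall at both times. It was at 2.23, 1.78, 3.37, 2.22 and 2.93 CPM in the libraries labelled KO at 7 days, against 25.1, 22.2, 23.9 and 12.1 CPM in controls (-3.06 ± 0.24, adjusted p = 9.06e-06). At 14 days it was at 0.961, 1.69, 2.68 and 1.63 CPM, against 11.4, 15.2 and 25.0 CPM in controls (-3.31 ± 0.33, adjusted p = 2.97e-05). Pfkfb2 fell by 1.57 ± 0.42 at 7 days and 1.47 ± 0.17 at 14 days, and its fall at 7 days was 1.07 without KO libraries 1 and 5. Pfkfb3 was called at 14 days, at 28.0, 32.9, 22.2 and 25.4 CPM in the libraries labelled KO, against 15.8, 13.7 and 13.6 CPM in controls (0.91 ± 0.14, adjusted p = 0.000482).

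**Figure D4:**
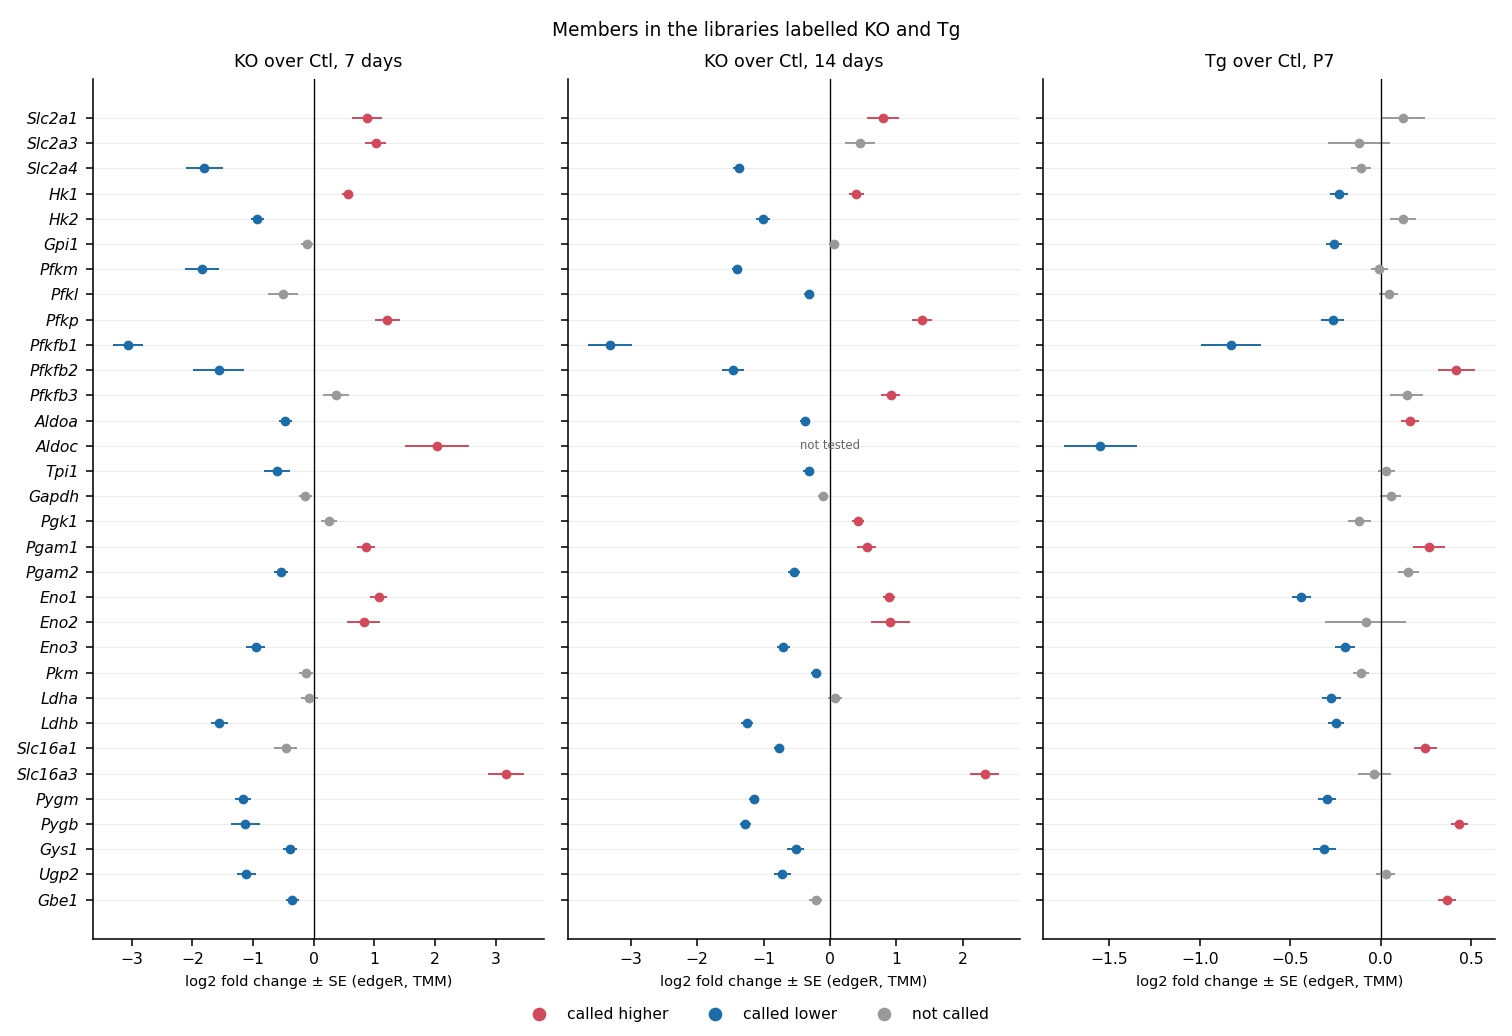
Log2 fold changes ± SE of the members in the libraries labelled KO over controls at 7 and 14 days and in those labelled Tg over controls at P7 (edgeR, TMM scaling); red is called higher, blue called lower, grey not called, and each panel has its own axis. Slc16a3 is the highest and Pfkfb1 the lowest member in both KO panels, and Gys1 and Gbe1 at 7 days and Pfkl, Tpi1 and Pkm at 14 days turn sign with total-count scaling, with which Aldoa and Pgam2 lose their calls at both times.

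In the lower pathway the enolases parted. Eno1 was at 392, 335, 441, 347 and 519 CPM in the libraries labelled KO at 7 days, against 180.2, 201, 197 and 193 CPM in controls. Eno3 was at 892, 859.9, 521, 712 and 707 CPM in the libraries labelled KO, against 1529, 1421, 1331 and 1425 CPM in controls. Neither overlapped, and the Eno3 to Eno1 log2 ratio was 0.85 ± 0.49 (SD, n = 5) in the libraries labelled KO, against 2.89 ± 0.14 (SD, n = 4) in controls (exact permutation p = 0.0159, adjusted p = 0.0407). Per kilobase, Eno3 made up 69.6% and 74.9% of enolase RNA in the libraries labelled KO at 7 and 14 days, against 90.5% and 90.1% in their controls. The wide-form mutase Pgam1 rose by 0.86 ± 0.15 and the muscle form Pgam2 fell by 0.54 ± 0.11 at 7 days (adjusted p = 0.000957 and 0.0024), but Pgam2 was at -0.11 with total-count scaling (adjusted p = 0.388).

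Among the abundant middle enzymes changes were smaller. Aldoa fell by 0.47 ± 0.10 at 7 days and 0.38 ± 0.08 at 14 days, but was at -0.0384 and -0.00257 with total-count scaling (adjusted p = 0.747 and 0.978). Gapdh was called at neither time (-0.14 ± 0.11 and -0.10 ± 0.08). Gpi1 was called at neither time (-0.11 ± 0.10 and 0.06 ± 0.08), and Pgk1 rose at 14 days (0.42 ± 0.09, adjusted p = 0.00355). The fall of Tpi1 at 7 days (0.61 ± 0.21) lost its call without any 1 of the controls or without KO library 1 or 5. The fall of Pkm at 14 days (0.22 ± 0.07) lost its call without any 1 of the controls or without KO library 7 or 9. Aldoc was called higher at 7 days from very few reads, 21, 13, 24, 11 and 14 in the libraries labelled KO, against 4, 0, 4 and 3 in controls, and was not tested at 14 days. Eno2 was at 1.51 to 3.35 CPM in the libraries labelled KO at 7 days, against 1.06 to 1.83 CPM in controls; its call ended without KO library 3 or 4 or control library 1, 2 or 4, and at 14 days without KO library 6 or 8 or control library 5 or 6.

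Ldhb was at 505, 689, 560.0, 637 and 436 CPM in the libraries labelled KO at 7 days, against 1808, 1643, 1546 and 1615 CPM in controls (-1.56 ± 0.14, adjusted p = 1.58e-05). Ldha was at 561, 741, 863, 698 and 584 CPM in the libraries labelled KO, against 761, 714, 669 and 735 CPM in controls (-0.07 ± 0.13, adjusted p = 0.678). The heart form was lower in all 5 libraries, while Ldha lay on both sides of its controls. At 14 days Ldhb was at 792, 787, 706 and 691 CPM in the libraries labelled KO, against 1838, 1834 and 1621 CPM in controls (-1.25 ± 0.09, adjusted p = 3.32e-06). The log2 ratio of Ldhb to Ldha was -0.29 ± 0.23 (SD, n = 5) in the libraries labelled KO at 7 days, against 1.199 ± 0.05 (SD, n = 4) in controls.

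Slc16a3 was the member with the largest rise. It was at 41.1, 18.7, 36.4, 21.0 and 47.1 CPM in the libraries labelled KO at 7 days, against 3.28, 3.68, 4.05 and 3.55 CPM in controls. At 14 days it was at 28.7, 18.7, 24.2 and 16.6 CPM in the libraries labelled KO, against 3.87, 5.33 and 3.89 CPM in controls. Every library labelled KO lay above every control, with changes of 3.16 ± 0.30 and 2.33 ± 0.22 (adjusted p = 2.08e-05 and 1.91e-05). Slc16a1 was at 219, 212, 364, 239 and 170.4 CPM in the libraries labelled KO at 7 days, against 311, 334, 344 and 332 CPM in controls, and was not called (-0.46 ± 0.19, adjusted p = 0.0575); at 14 days it fell by 0.76 ± 0.08. Despite its rise Slc16a3 remained the smaller of the pair, at 12.8% of their RNA per kilobase in the libraries labelled KO at 7 days, against 1.11% in controls.

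Both glycogen phosphorylases fell together. Pygm was at 1146, 978, 720.5, 941 and 995 CPM in the libraries labelled KO at 7 days, against 2331, 2071, 2028 and 2092 CPM in controls. Pygb was at 413, 768, 648, 767 and 332 CPM in the libraries labelled KO, against 1407, 1229.7, 1265 and 1178 CPM in controls. No library labelled KO reached the controls for either gene, and the changes were -1.16 ± 0.13 and -1.13 ± 0.24 at 7 days and -1.15 ± 0.08 and -1.28 ± 0.08 at 14 days. Of the 11 isoform pairs 9 differed at 7 days, and these calls ended on leaving out any 1 of the libraries labelled KO at 7 days, the P60 controls or the P7 controls, since the adjustment runs over all 66 tests and fewer libraries raise the smallest possible p. Pygm to Pygb was not among them (0.02, exact permutation p = 0.952), with ratios of 0.15 to 1.58 in the libraries labelled KO, against 0.68 to 0.83 in controls. Ugp2 fell by 1.11 ± 0.15 and 0.72 ± 0.13 at the 2 times. Gys1 fell by 0.40 ± 0.12 and 0.52 ± 0.12, of which the change at 7 days lost its call without control library 4. Gbe1 fell by 0.35 ± 0.11 at 7 days, with no call left without control library 1 or 4, and was not called at 14 days (-0.22 ± 0.10).

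**Figure D5:**
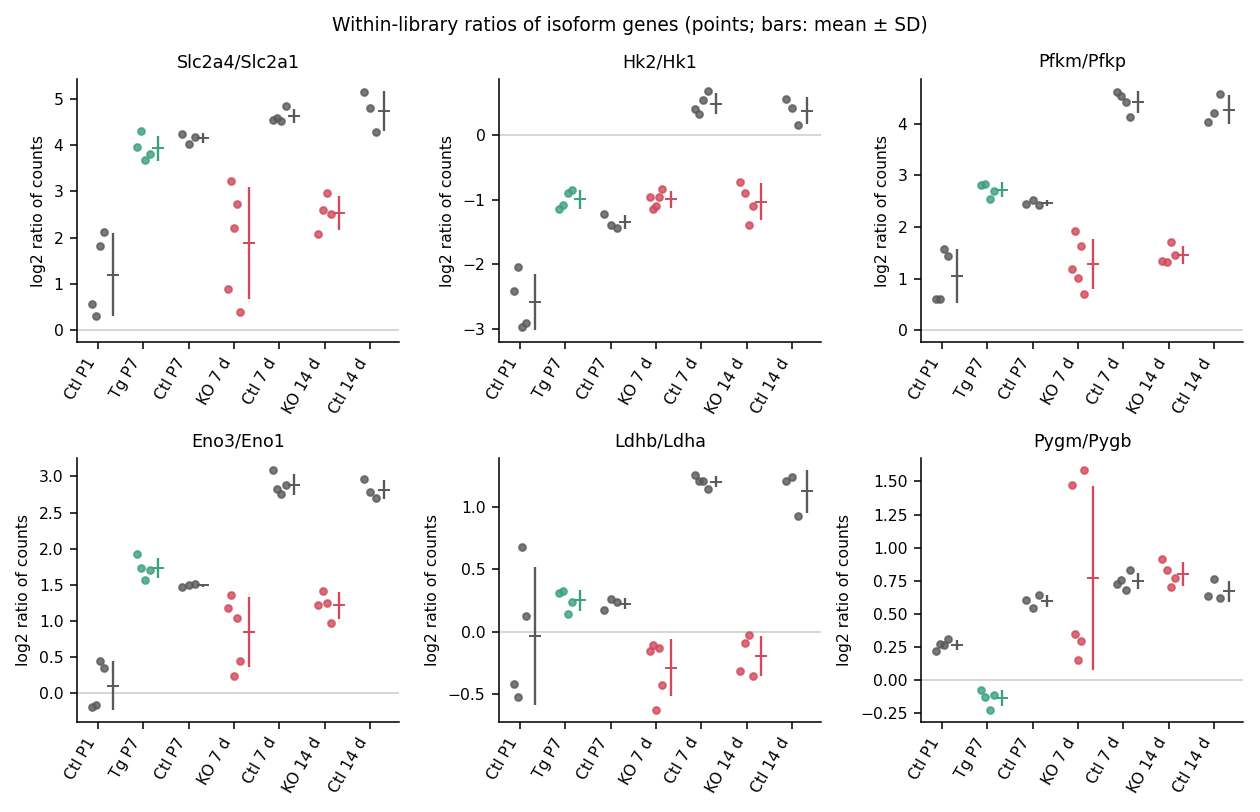
Log2 ratio of the counts of 2 genes within each library for 6 isoform pairs, with a point per library and a bar for mean ± SD (green Tg, red KO, grey controls). In 5 panels the libraries labelled KO lie under the P60 controls without overlap, and for Pygm to Pygb the libraries labelled KO at 7 days run from 0.15 to 1.58 around their controls.

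The libraries labelled KO at 7 days were not alike either. By their Xist and Y-linked counts libraries 1 and 5 were male and 2, 3 and 4 female, with 2 controls of each sex, so sex and whatever else sets libraries 1 and 5 apart cannot be told apart among the libraries labelled KO. With sex as a covariate all 24 members called at 7 days kept their calls. In libraries 1 and 5, 12 of the 31 members compared were lower than in each of libraries 2, 3 and 4, where 30.0% of 14324 genes were lower, and 6 were higher, where 28.9% were higher. Pfkl was at 77.9 and 92.8 CPM in libraries 1 and 5, and at 176, 179.8 and 188 CPM in libraries 2 to 4. Pkm was at 1260.1 and 1522 CPM in libraries 1 and 5, and at 1126, 1126 and 1108 CPM in libraries 2 to 4. Cardiomyocyte markers summed to 30959.8 and 23277 CPM in libraries 1 and 5, and to 46536, 47609 and 47933 CPM in libraries 2 to 4, and fibroblast markers to 4494 and 4913 CPM, and to 11685, 9782 and 10213 CPM; their part in the split was not tested. Without libraries 1 and 5, 10 members were higher and 15 lower than in controls, and calls over all genes numbered 7964 in place of 7695, of which 4120 in place of 4001 were higher. Gbe1 then lost its call (-0.29), Pgk1 (0.43) and Pkm (-0.24) gained one, Slc2a1 was at 0.51 in place of 0.88 and Tpi1 at -0.30 in place of -0.61. Slc16a3 rose by 2.80, Slc2a4 fell by 1.40 and Pfkm fell by 1.45 without these libraries.

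In the libraries labelled Tg changes were smaller than in those labelled KO for most members, which was not tested. Of 32 members 6 were higher, where 14.9% of the 15893 genes tested were higher, and 11 were lower, where 15.8% were lower, with a median of -0.06 over the members and 0.00 over all genes. With all 27 libraries in 1 fit, which shares its estimate of the spread, Gbe1 was the 1 member called higher and Gpi1 and Aldoc the 2 called lower. Aldoc was at 0.943, 0.943, 1.07 and 1.38 CPM in the libraries labelled Tg, against 3.505, 3.71 and 2.35 CPM in controls (-1.55 ± 0.20, adjusted p = 8.87e-05). Pfkfb1 was at 1.49, 1.33, 1.14 and 1.41 CPM in the libraries labelled Tg, against 2.59, 2.03 and 2.56 CPM in controls (-0.83 ± 0.17, adjusted p = 0.00217). Eno1 was at 217, 222, 236 and 229 CPM in the libraries labelled Tg, against 320.2, 294 and 306 CPM in controls (-0.44 ± 0.05, adjusted p = 4e-05). None of these 3 genes overlapped between the groups.

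The glycogen phosphorylases moved apart in the libraries labelled Tg. Pygb was at 691, 660.0, 664 and 645 CPM in those libraries, against 499, 504 and 476 CPM in controls (0.43 ± 0.05, adjusted p = 1.98e-05). Pygm was at 654, 603, 568 and 597 CPM in the libraries labelled Tg, against 759.7, 736 and 741 CPM in controls (-0.30 ± 0.05, adjusted p = 0.000765). Pygb lay above and Pygm under every control in all 4 libraries labelled Tg. The Pygm to Pygb log2 ratio was -0.14 ± 0.06 (SD, n = 4) in the libraries labelled Tg, against 0.60 ± 0.05 (SD, n = 3) in controls (exact permutation p = 0.0571, the smallest that 4 against 3 libraries can give). Gbe1 was at 38.3, 38.2, 40.2 and 37.2 CPM in the libraries labelled Tg, against 30.5, 28.6 and 30.5 CPM in controls (0.37 ± 0.05, adjusted p = 0.000151), and Gys1 fell by 0.31 ± 0.06.

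Of the other members Pfkfb2 rose by 0.42 ± 0.10, and Hk1, Gpi1, Pfkp, Ldha and Ldhb fell by 0.23, 0.26, 0.27, 0.27 and 0.25. Slc2a4 and Pfkm were not called (-0.11 ± 0.06 and -0.01 ± 0.05). The call on Aldoa (0.16 ± 0.05) ended without Tg library 1 or 3 or control library 2 or 3, and that on Pgam1 (0.27 ± 0.09) without Tg library 3 or 4 or control library 1 or 2. The call on Eno3 (-0.20 ± 0.06) ended without control library 1 or 3, and that on Slc16a1 (0.25 ± 0.06) without control library 2. Macrophage markers summed to 152 to 196 CPM in the libraries labelled Tg, against 92.6 to 120.0 CPM in controls, and fibroblast markers to 7459 to 8779 CPM, against 6066 to 7121 CPM; 8 and 6 of the 8 genes of these lists were called higher, and their part was not tested.

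Genes of neighbouring pathways were taken from 8 lists. Of all genes tested in KO against controls at 7 days, 26.4% were higher and 24.4% lower. In the libraries labelled KO at 7 days, 1 of 14 genes of pyruvate entry into the mitochondrion was higher and 12 were lower (median -0.91, against 0.03 over all genes), with Pdk3, a kinase that inactivates pyruvate dehydrogenase, at 2.45 ± 0.23 and Pdp2, a phosphatase that activates it, at -2.25 ± 0.12. Of 10 redox shuttle genes 1 was higher and 9 were lower (median -0.98), with Got1, the cytosolic transaminase of the malate-aspartate shuttle, at -1.62 ± 0.19. Of 7 pentose phosphate genes 5 were higher and 0 lower (median 0.86), with G6pdx, the entry enzyme, at 1.28 ± 0.19. Of 7 hexosamine and sialic acid genes 4 were higher and 0 lower (median 0.41), and of 7 polyol and serine genes 2 were higher and 4 lower (median -0.39). Of 15 other glycolysis genes 5 were higher and 9 lower (median -0.79), with Fbp2, the muscle fructose bisphosphatase, at -1.88 ± 0.26. Of 23 other glycogen genes 6 were higher and 8 lower (median -0.30), with the phosphorylase kinase subunit Phkg1 at -1.47 ± 0.25. Of 32 regulators 8 were higher and 12 lower (median -0.23), with Myc at 2.06 ± 0.46 and Ppargc1a, a coactivator of mitochondrial genes, at -2.72 ± 0.50. The shares higher among the regulators and the other glycogen genes were near that of all genes. With total-count scaling the other glycolysis genes had 5 higher and 5 lower (median -0.36), and the other glycogen genes 9 higher and 4 lower (median 0.12). Pyruvate entry then had 1 higher and 9 lower, and redox shuttles 1 higher and 7 lower. The regulators had 12 higher and 9 lower (median 0.19), and the median of the polyol and serine genes was 0.04, against 0.45 over all genes. Under that scaling 9652 of the 15167 genes tested were called, 8062 of them higher.

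At 14 days pyruvate entry had 1 of 14 genes higher and 11 lower, redox shuttles 0 of 10 higher and 8 lower, and pentose phosphate 3 of 7 higher and 1 lower. Of all genes 21.8% were higher and 22.4% lower. With total-count scaling pyruvate entry had 2 higher and 10 lower, redox shuttles 1 and 6, and pentose phosphate 5 and 0. Of the 14976 genes tested 8900 were then called, 7288 of them higher. Pdk3 was at 2.88 ± 0.23 with TMM. In the libraries labelled Tg, pyruvate entry had 1 gene higher and 7 lower, the higher being Pdk4 (0.51 ± 0.08). Of all genes 14.9% were higher and 15.8% lower in these libraries. There Ppp1r3c, a glycogen-targeting subunit of protein phosphatase, rose by 0.89 ± 0.07, and Prkag2, a regulatory subunit of the AMP-activated kinase, fell by 0.71 ± 0.06. In P60 against P7 controls 12 of 14 pyruvate entry genes and 9 of 10 redox shuttle genes were higher, where 33.3% of all genes were higher. With total-count scaling 10 and 7 were higher, where 2354 of the 16388 genes tested were higher. Pdk3 fell by 2.99 ± 0.14 with TMM. Phkg1 rose by 2.83 ± 0.14 in that comparison.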

How the data were processed

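Total RNA of ventricle was extracted with TRIzol and an RNeasy kit and sequenced on DNBseq, per the labels' protocols. The authors deposited a table of raw counts per Ensembl gene for 27 libraries; STAR, featureCounts, Salmon, DESeq2 and the builds GRCm38 and mm10 are named in the submitters' processing notes, while their roles and versions, and whether counting used strand, are not given in the sources used here. Totals were 21929347 to 25675115 counts per library, and this depth limits the precision of members with few counts, such as Aldoc. The 32 members and the lists of pathway genes and markers were chosen with earlier results of these data known. Of the 55487 gene IDs, 55227 were paired with a symbol by the reference annotation.

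Genes were filtered by filterByExpr, scaled by TMM and tested with edgeR 4.0.16 in R 4.3.3 (quasi-likelihood test, Benjamini-Hochberg adjustment over all genes tested in a comparison, threshold 0.05). The groups labelled KO or Tg were fitted with controls of the same time or age, the control ages in 1 fit of 14 libraries, and the difference between KO times in 1 fit of the 16 P60 libraries. The test was checked on simulated counts. Isoform pairs were compared as log2((count + 0.5)/(count + 0.5)) per library by two-sided exact permutation tests, adjusted over 66. Levels of different genes were compared per kilobase of the principal transcript. Named were all members and, from each pathway list and comparison, called genes with the largest rise or fall among those reaching a mean of 5 CPM in a group, apart from the genes set beside the P1 libraries. No pair of libraries agreed within sampling noise (chi-square per degree of freedom 6.34 to 147).

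Alternatives were total-count scaling, DESeq2's size factors and its test (1.42.0), limma-voom (3.58.1), no low-count filter, no mitochondrially encoded genes, all libraries in 1 fit, a sex covariate, a replicate block, and libraries left out. An exon of 12 members overlaps a gene on the other strand, by 18 to 748 bases, and of 3 members a gene on the same strand. Reads of these, and of genes with near-identical copies such as Gapdh, Eno1 and Ldha, may be split or shared in the counting.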

Additional observations from a re-analysis of the deposited data

Results flagged for a closer look

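In 7 of the 215 sets of member levels or isoform ratios over 4 or 5 libraries, 1 library lay apart from the rest of its group by Dixon's test at the 95% level, a share below the 1 in 20 that chance gives. Among the libraries labelled KO at 14 days, Hk1 stood apart in library 8 at 448 CPM, Aldoa in library 6 at 3625 CPM and Pgam1 in library 7 at 33.1 CPM. Among the libraries labelled Tg, Slc16a1 stood apart in library 1 at 140.1 CPM and Ugp2 in library 3 at 131 CPM. Pfkp stood apart in control library 4 of the 7-day time at 69.7 CPM, and Aldoc in P1 control library 3 at 14.5 CPM.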

How the results depend on the processing

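With total-count scaling higher genes made up 83.5% of all calls in KO at 7 days and 81.9% at 14 days. In P60 controls they made up 18.0% against P7 and 19.3% against P1. That scaling moved the counts most: 15 members were higher in KO at 7 days and 11 lower in KO at 14 days. Under it 9 members were lower in P60 against P7 controls and 18 in P60 against P1 controls. It turned the sign of Gys1 (0.0287) and Gbe1 (0.0753) in KO at 7 days, of Pfkl (0.0551), Tpi1 (0.0548) and Pkm (0.15) in KO at 14 days, of Gpi1 (-0.19), Pfkl (-0.0218), Tpi1 (-0.0672) and Pkm (-0.18) in P60 against P7 controls, and of Pfkfb3 (-0.0632), Gapdh (-0.28) and Pkm (-0.43) in P60 against P1 controls. With all 27 libraries in 1 fit, 1 member was higher and 2 were lower in Tg, and 1 was higher in P7 against P1 controls; without a low-count filter 5 were lower in P60 against P7 controls. The cause was not tested. Leaving out P1 libraries 3 and 4 turned Pkm to -0.0115 in P60 against P1 controls and left 0 of the 28 isoform pair calls, and leaving out KO libraries 1 and 5 left 9, with fewer samples in each. On leaving out 1 library, members called ran from 8 to 10 higher and 12 to 16 lower in KO at 7 days, from 6 to 9 and 16 to 17 in KO at 14 days, from 3 (without P7 control library 2) to 7 and 10 to 12 in Tg, from 2 to 3 and 15 to 23 in P7 against P1 controls, from 21 to 24 and 3 to 4 in P60 against P7 controls, from 15 to 16 and 10 to 12 in P60 against P1 controls, and isoform pair calls from 0 to 28. With a replicate block 9 members were higher and 13 lower in KO at 7 days, 7 and 14 in KO at 14 days, 5 and 11 in Tg, 3 and 16 in P7 against P1 controls, 22 and 3 in P60 against P7 controls, and 15 and 11 in P60 against P1 controls; the difference between KO times kept 0 and 0. Same-numbered libraries correlated at -0.309 to 0.129 in their deviations from the group means, and not every library correlated best with its own number, so the numbers do not pair the samples. Of the values of members not called, 1663 kept their direction and stayed uncalled, and 53 kept it and became called. Among values of members and isoform ratios not called, 89 turned sign. Isoform ratios that kept their sign are not in these counts.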
